A study of Homo sapiens with 8 samples.

Results

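The mRNA content of KYSE850 cells, an established human line from an esophageal squamous cell carcinoma (ESCC), was described from the 4 arrays of cells given a control siRNA, out of 8 arrays in the series. These 4 arrays were chosen by their titles alone and are called control arrays 1 to 4. The other 4 arrays, from cells of the same line given siRNA against KHSRP, an RNA-binding protein, were not compared with the controls for an effect of the siRNA. Their levels and the order of their arrays are set beside those of the controls where the spread among the controls is described, and they entered fits of slide and header number over all 8 arrays. All 8 samples were transfected with an siRNA, so untransfected cells are not described, and the whole series rests on 1 cell line grown without the stroma of a tumor. The labels number the 4 control samples but do not state whether they were separate cultures, so every p-value below measures only the spread between these samples, which may be technical.

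Total RNA was copied into Cy3-labelled cRNA and hybridised to one-colour Agilent arrays with 42405 probes other than controls, of which 27241 (64.2%) could be joined to 20249 gene symbols. The level of a probe is the log2 of its processed signal minus the 75th percentile of the array, so a level of 0 is the signal at that percentile and 1 unit is a doubling. A probe was counted as detected when the scanner software marked at least 0.5 of its spots as well above background. Between 20244 and 20654 probes (47.7% to 48.7%) were detected on a control array, no spot was saturated, and the signal at the 75th percentile ran from 98.1 to 116.8. Each gene was read at its brightest probe and given a percentile of brightness among all genes. Probes differ in how well they hybridise, so this percentile describes the signal on the array and does not order the amounts of mRNA.

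The esophagus is lined by a stratified squamous epithelium. Its basal cells are anchored to the basement membrane by hemidesmosomes, in which integrin alpha 6 beta 4 and collagen XVII bind laminin-332, and they are held to each other by desmosomes. They divide, express the keratin pair KRT5 and KRT14 and depend on the transcription factors p63 and SOX2. Cells that leave the basal layer switch to other keratins and then build a cornified envelope from involucrin, small proline-rich proteins and their crosslinking transglutaminases. Squamous carcinomas usually keep much of the basal program and lose parts of the upper one.

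Of the 20249 genes, 11950 (59%) were detected on all 4 control arrays, 1795 on 1 to 3 of them and 6504 (32.1%) on none. Over probes, 18332 (43.2%) were detected on all 4. Genes of protein synthesis gave the brightest signals, since 46 of the 100 brightest genes encoded ribosomal proteins. The brightest probe was that of SNAR-A3, a small noncoding RNA gene, with levels of 10.14, 9.86, 10.09 and 10.27 on control arrays 1 to 4. It was followed by RNA28SN5, a gene of 28S ribosomal RNA, and by the ribosomal protein genes RPS2, RPL13 and RPS21.

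Among the 20 brightest genes, 10 encoded ribosomal proteins, and the others that encode proteins were GSTP1, EEF1A1, ACTB, H4C3, MT2A, SLC66A1 and ZNF865. ZNF865 was read at a probe with a single spot, and its other probe was not detected on all 4 arrays. GSTP1, which conjugates glutathione to electrophiles, had levels of 9.01, 8.83, 9.36 and 9.18, which made it the sixth brightest gene. EEF1A1 is the elongation factor that brings tRNA to the ribosome, ACTB the cytoplasmic actin and MT2A a metallothionein that binds zinc and copper. The signal recognition particle RNA, RN7SL1, completed the 20.

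As a check of what an undetected probe can mean, 40 subunits of the proteasome, the chaperonin CCT and RNA polymerase II were read, which all dividing cells need. All 40 were detected on all 4 arrays, with a median percentile of 97.1. Their levels were also steady, with a median SD of 0.11 over the 4 arrays. POLR2L stood at 8.01, 8.05, 8.1 and 8.11, and PSMB1, a proteasome subunit, at 7.76, 7.82, 7.73 and 7.91. The exception in brightness was CCT5, whose probe reached the 39.9 percentile with levels of -2.61, -2.9, -2.43 and -3.0, while CCT4 of the same complex had a mean level of 7.66 ± 0.09 (SD, n = 4). Brightness was therefore not read as an amount of mRNA.

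**Figure D1:**
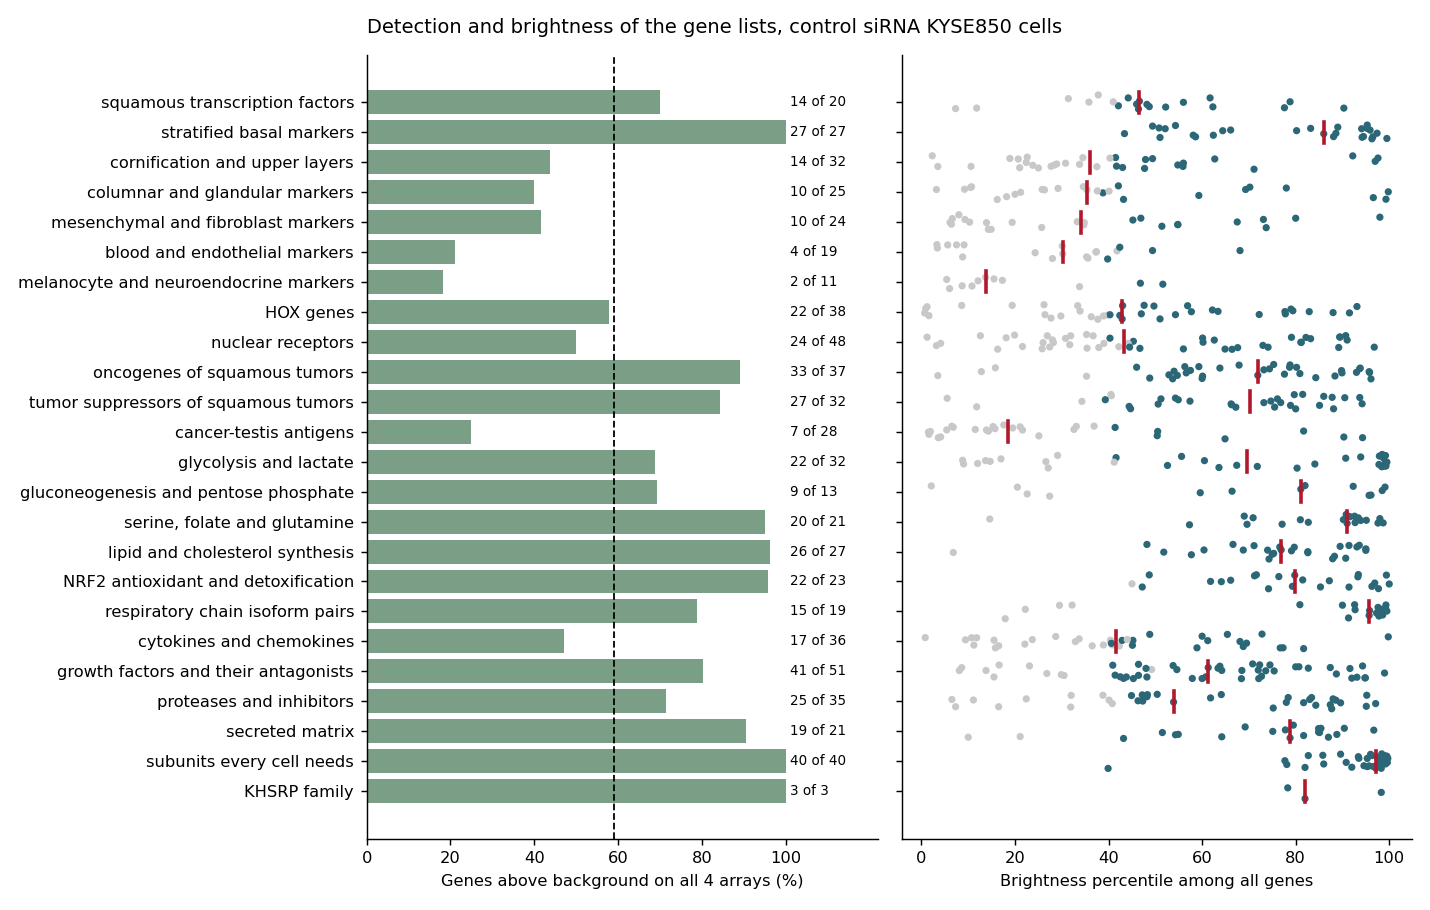
Left, share of the genes of each list that were detected on all 4 control siRNA arrays, in percent, with the count beside each bar and the share over all genes (59%) as a dashed line. Right, brightness percentile of each gene of the list, dark where detected on all 4 arrays and grey otherwise, with the list's median in red. Basal markers and housekeeping subunits were all detected, and most melanocyte, blood and cancer-testis genes were not.

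The label of a squamous line was checked against marker lists. All 27 stratified basal markers were detected on all 4 arrays, against 59% of all genes, and their median percentile was 86.0. The list held the 14-3-3 protein stratifin (SFN), with levels of 8.07, 7.11, 8.23 and 7.03, the stress keratin KRT6A, with 6.66, 5.0, 6.74 and 4.16, and PERP, a desmosomal membrane protein, with a mean of 5.25 ± 0.22 (SD, n = 4). The detected genes took in every desmosomal and hemidesmosomal gene of the list, among them DSP, JUP, PKP1, PKP3, DSG3, ITGA6, ITGB4, COL17A1, LAMA3 and LAMB3.

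The squamous transcription factors were less complete than the basal markers. Of 20 on the array, 14 were detected on all 4 arrays (70%, against 59% of all genes). The list's median percentile was 46.5. PITX1, a homeobox factor of the oral ectoderm and the hindlimb, stood at 3.75, 3.58, 3.71 and 3.45. SOX2 had levels of 2.45, 1.25, 3.17 and 1.11 and KLF5 of 2.05, 1.35, 2.88 and 1.15, and in both the third array was the highest and the fourth the lowest. TP63, which encodes p63, was detected on all 4 arrays at a dim probe, with levels of -1.26, -2.78, -0.37 and -2.57. ZNF750, GRHL2 and HOPX, which act in terminal differentiation or epithelial identity, were detected on none.

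Of 32 genes of cornification and the upper layers, 14 were detected on all 4 arrays (43.8%, against 59% of all genes). Another 5 were detected on some and 13 on none, and the list's median percentile was 36.0. The 3 brightest were KRT10, at a mean of 5.72 ± 0.15 (SD, n = 4), the cysteine protease inhibitor CSTB, at 5.45 ± 0.06, and EMP1, at 3.98 ± 0.10. CSTB and EMP1 are also widely expressed outside squamous cells. Involucrin (IVL), loricrin (LORICRIN), the esophageal keratin KRT4, SPRR3, CRNN, TGM3, MAL and the desmoglein of the upper layers, DSG1, were detected on none. KRT13, the partner of KRT4 in the upper esophageal layers, was dim, with levels of -2.71, -2.76, -1.73 and -2.74. The small proline-rich genes SPRR1A, SPRR2A and SPRR2D and the transglutaminase TGM1 were detected on all 4 arrays. So were CNFN, SBSN, KRTDAP, S100A8, ECM1 and CSTA.

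Simple keratins were bright as well. KRT19 had levels of 8.22, 8.65, 7.85 and 9.13, KRT18 a mean of 7.26 ± 0.14 (SD, n = 4) and KRT8 a mean of 5.27 ± 0.46. Of the 25 columnar and glandular markers, 10 were detected on all 4 arrays (40%, against 59% of all genes). The list's median percentile was 35.4. The transcription factors GATA6 (1.19, 0.72, 1.81 and 0.58), CDX2 (0.69, 1.19, 0.73 and 1.26) and FOXA2 (0.4, -0.53, 0.66 and -0.95) were among the detected genes. CDX2 is a master regulator of the intestine. Of the other genes of this list, MUC2, MUC6 and CDX1 were detected on all 4 arrays. CDX1 was dim, at a mean level of -2.18, and another of its probes was detected on none. Probes for the intestinal products VIL1, CDH17, KRT20, SI, LGALS4 and REG4 were detected on none of the 4 arrays.

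Mesenchymal genes fell into those that carcinoma cells can express and those of fibroblasts. Of 24, 10 were detected on all 4 arrays (41.7%, against 59% of all genes). Vimentin (VIM), the intermediate filament of mesenchymal cells, stood at 6.18, 5.26, 7.17 and 5.02, N-cadherin (CDH2) at 2.72, 1.31, 3.74 and 0.74, and the transcription factor ZEB1 at 1.36, 1.33, 1.75 and 1.29. SNAI2, SNAI1, TWIST1 and TWIST2 were also detected on all 4. The fibroblast genes COL1A2, COL3A1, COL6A3, DCN, LUM, PDGFRA, PDGFRB, FAP, THY1 and POSTN were detected on none. COL1A1 and ACTA2 were detected on all 4, with mean levels of -1.86 ± 0.50 and -1.03 ± 0.35 (SD, n = 4).

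Markers of other cell types were mostly at background. Of 19 blood and endothelial genes, 4 were detected on all 4 arrays (21.1%, against 59% of all genes): CD68, FCER1G, CD14 and TYROBP. The defining endothelial genes PECAM1, CDH5, VWF, KDR and TEK and the B-cell gene MS4A1 were detected on none. CD68, a lysosomal protein that is most abundant in macrophages, had levels of 1.52, 0.53, 1.78 and -0.43. Of 11 melanocyte and neuroendocrine genes, CHGA (-0.41, -1.6, 0.09 and -2.09) and PMEL (-1.94, -1.34, -1.96 and -1.27) were detected on all 4 arrays, DCT on 1 array, and SOX10, MLANA, TYR, INSM1, NEUROD1, SYP and S100B on none.

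The HOX genes, which set position along the body axis and lie in 4 clusters, were detected cluster by cluster to unequal extents. Of 38 on the array, 22 were detected on all 4 arrays (57.9%, against 59% of all genes). In the HOXA cluster 9 of 10 were detected and in the HOXB cluster 8 of 10, but in the HOXC cluster only 4 of 9 and in the HOXD cluster 1 of 9, HOXD8. The brightest were HOXB6, with levels of 3.82, 4.73, 3.61 and 4.55, HOXA9, with 3.66, 4.47, 2.95 and 4.38, and HOXB9, with 2.99, 3.68, 2.75 and 3.55. In all 3, arrays 2 and 4 lay above arrays 1 and 3. The detected genes reached to the posterior end of both clusters, HOXA13 (-1.46, -1.16, -0.78 and -0.87) and HOXB13 (-0.16, 0.95, -0.73 and 0.84).

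**Figure D2:**
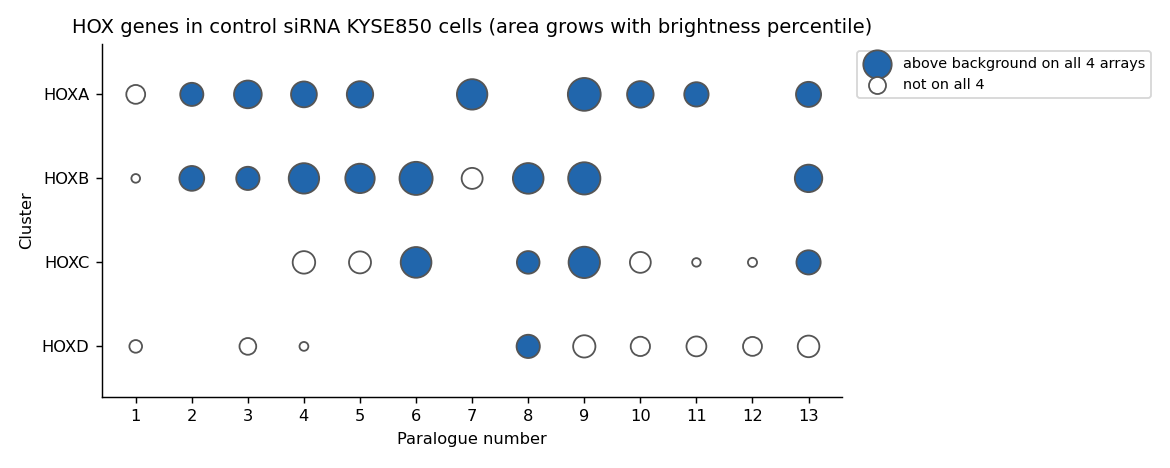
HOX genes by cluster and paralogue number, filled where the gene was detected on all 4 control siRNA arrays and with an area that grows with its brightness percentile; an empty place is a gene that does not exist or was not matched on the array. Filled circles cover 9 of 10 HOXA and 8 of 10 HOXB genes but 1 of 9 HOXD genes.

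Of 48 nuclear receptors, 24 were detected on all 4 arrays (50%, against 59% of all genes), 7 on some and 17 on none. The orphan receptors NR2F6 and NR2F2 had means of 5.35 ± 0.18 and 3.70 ± 0.43 (SD, n = 4), and ESRRA, a regulator of mitochondrial genes, 3.75 ± 0.14. The receptors for glucocorticoid (NR3C1), vitamin D (VDR) and retinoic acid (RARA, RARG, RXRA and RXRB) were detected, and those for estrogen (ESR1 and ESR2), progesterone (PGR) and mineralocorticoid (NR3C2) were not. NR2F1 differed most between arrays, with levels of 1.35, 3.13, 0.92 and 4.19, and NR0B1, which represses other receptors, ran the opposite way with 3.93, 2.85, 4.87 and 2.29.

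Of 37 oncogenes of squamous tumors, 33 were detected on all 4 arrays (89.2%, against 59% of all genes), with a median percentile of 71.9. The brightest were the hepatocyte growth factor receptor MET, with levels of 4.9, 5.32, 4.71 and 5.39, FADD, with 5.06, 4.83, 5.16 and 4.74, and the actin regulator cortactin (CTTN), with 4.84, 4.97, 4.89 and 4.99. FADD, CTTN, CCND1 and ANO1 lie in the chromosome 11q13 region that is often amplified in ESCC, but copy number was not measured here. CCND1, cyclin D1, stood at 3.37, 3.82, 3.21 and 3.71 and MYC at 4.13, 4.3, 4.33 and 4.63. EGFR had a mean of -0.01 ± 0.54 (SD, n = 4). FGF4, MYCN and the single matched probe of NFE2L2 were detected on none.

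Of 32 tumor suppressors of squamous tumors, 27 were detected on all 4 arrays (84.4%, against 59% of all genes). CUL3, the scaffold of the ubiquitin ligase that degrades NRF2, stood at 4.45, 4.43, 4.43 and 4.59, the protocadherin FAT1 at 4.09, 4.91, 3.46 and 4.78, and CDKN2A, the locus of p16, at 3.49, 4.17, 2.79 and 4.22. MTAP, next to CDKN2A, had a mean of 2.79 ± 0.47 (SD, n = 4), whereas CDKN2B, on the other side of it, was detected on none. Gene sequence was not measured, so whether any of these mRNAs carries a mutation is not known from these data.

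Cancer-testis genes, which are normally silent outside the germ line, were mostly undetected. Of 28 on the array, 7 were detected on all 4 arrays (25%, against 59% of all genes) and 19 on none. MAGEA6 had levels of 4.27, 4.89, 3.74 and 5.04, MAGEB2 of 3.55, 4.11, 2.82 and 4.01 and MAGEA12 of 2.42, 2.74, 1.41 and 2.78. The MAGEA genes are closely similar X-linked copies, so a probe of 1 may also bind others. PRAME, CTAG1A, MAGEA4 and CTAG2 were the other detected members.

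Of 32 metabolic genes of glycolysis and lactate, 22 were detected on all 4 arrays (68.8%, against 59% of all genes). GAPDH, LDHB and ENO1 had means of 7.62 ± 0.29, 7.37 ± 0.21 and 7.11 ± 0.06 (SD, n = 4). The muscle and tumor pyruvate kinase PKM, the hexokinases HK1 and HK2, the lactate exporter SLC16A3 and the glucose transporter SLC2A1 were detected, and the liver forms PKLR and SLC2A2, the testis forms PGK2 and GAPDHS and the insulin-responsive transporter SLC2A4 were not. Tissue-restricted isoforms were not all undetected, since the testis form LDHC (-0.27, -1.27, 0.26 and -2.23) and the muscle enolase ENO3 (0.16, 0.45, -0.34 and 1.21) were detected on all 4 arrays. SLC2A1 varied with array, at 4.19, 3.33, 4.35 and 2.96.

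The pentose phosphate pathway, which makes NADPH and ribose, was detected throughout, with TKT at a mean of 6.94 ± 0.15 (SD, n = 4), TALDO1 at 6.33 ± 0.49 and PGD at 5.07 ± 0.59. The gluconeogenic enzymes PCK1, FBP1, FBP2 and G6PC1 were detected on none, while mitochondrial PCK2 was detected on all 4. Serine, folate and glutamine genes were the brightest of the metabolic lists apart from the respiratory chain, with a median percentile of 91.0. Of these 21 genes, 20 were detected (95.2%, against 59% of all genes). GOT2, TYMS and ASNS, for aspartate, thymidylate and asparagine synthesis, had means of 6.42 ± 0.09, 5.93 ± 0.21 and 5.73 ± 0.44. Only liver-type glutaminase, GLS2, was detected on none.

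Of 27 genes of lipid and cholesterol synthesis, 26 were detected on all 4 arrays (96.3%, against 59% of all genes). FDPS of the mevalonate pathway stood at 4.49, 4.79, 4.32 and 5.19 and the transcription factor SREBF1 at 4.08, 4.43, 3.5 and 5.16. In 21 of the 26 genes (80.8%) arrays 2 and 4 both lay above arrays 1 and 3, as they did in 36.2% of all detected genes.

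Of 23 genes of the NRF2 antioxidant and detoxification response, 22 were detected on all 4 arrays (95.7%, against 59% of all genes). The list's median percentile was 79.8, although the probe of the NRF2 gene itself, NFE2L2, was not above background. GSTP1, described above, was joined by thioredoxin (TXN), at 7.48, 7.44, 7.95 and 7.31, and sulfiredoxin (SRXN1), at 6.2, 5.39, 6.62 and 4.92. The aldo-keto reductases AKR1B10, AKR1C3 and AKR1C1 had means of 5.40 ± 0.80, 5.15 ± 0.94 and 4.24 ± 1.08 (SD, n = 4). NQO1, a common marker of the response, was steadier and dimmer, at 0.4, 0.51, 0.45 and 0.41. In the respiratory chain the general isoforms COX6A1, COX8A and COX7A2 had means of 7.69 ± 0.09, 7.29 ± 0.03 and 7.13 ± 0.17, and of the tissue-restricted partners COX6A2, COX7B2, COX4I2, COX8C and COX6B2 only the testis form COX6B2 was detected on all 4, at a mean of 3.82 ± 0.26.

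Secreted factors were read in 4 lists. Of 36 cytokines and chemokines, 17 were detected on all 4 arrays (47.2%, against 59% of all genes). MIF, a cytokine made by most cells, had levels of 8.24, 8.51, 8.35 and 8.84. Interleukin-1 beta (IL1B) stood at 3.21, 1.61, 3.52 and 0.99, and the neutrophil chemokine CXCL1 at 2.35, 1.43, 1.42 and 2.08. CXCL8, TNF, IL10, IL24, CCL20 and CSF3 were detected on none.

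Of 51 growth factors and their antagonists, 41 were detected on all 4 arrays (80.4%, against 59% of all genes). GDF15, a stress-induced member of the TGF-beta family, stood at 6.37, 7.28, 6.23 and 7.47, FGFBP1, which releases FGF from the matrix, at 5.52, 3.99, 5.91 and 3.25, and IGFBP2, which binds insulin-like growth factors, at 4.31, 4.92, 4.06 and 5.27. Both TGFB2 and TGFB3 were detected on none, and TGFB1 on all 4.

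Of 35 proteases and inhibitors, 25 were detected on all 4 arrays (71.4%, against 59% of all genes). Urokinase (PLAU) had levels of 5.71, 5.58, 5.53 and 5.22, cathepsin L (CTSL) of 5.13, 4.37, 5.49 and 3.98, and the metalloproteinase inhibitor TIMP2 of 4.52, 5.06, 4.35 and 5.0. The interstitial collagenase MMP1 was detected, at 2.01, 1.05, 2.27 and 0.98, and MMP3, MMP10, MMP12 and MMP13 were not. Of 21 secreted matrix genes, 19 were detected (90.5%, against 59% of all genes). Osteopontin (SPP1) stood at 5.88, 4.77, 6.47 and 4.21 and perlecan (HSPG2) at 3.74, 3.75, 3.57 and 3.5. The collagen IV chain COL4A2 stood at 4.22, 2.73, 4.69 and 1.81.

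KHSRP, the target of the siRNA in the other group, was bright in the control cells, with levels of 6.03, 5.81, 6.39 and 6.08 and a percentile of 98.3. Its relatives FUBP3 and FUBP1, which share its RNA-binding KH domains, had means of 2.37 ± 0.15 and 1.94 ± 0.24 (SD, n = 4).

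The spread among the 4 control arrays was small for most probes and wide for a minority. The median SD over the 18332 detected probes was 0.243, which is 1.18-fold, with 5th and 95th percentiles of 0.074 and 0.756. An SD over 1, a limit set after the values had been seen, was found in 326 of 11950 detected genes (2.73%). It was found in 11 of 27 stratified basal markers (40.7%), 8 of 19 secreted matrix genes (42.1%) and 13 of 41 growth factors and antagonists (31.7%), against the 2.73% of all detected genes. It was found in none of the 40 housekeeping subunits, 22 HOX genes, 27 tumor suppressors or 26 genes of lipid synthesis. At the 2.73% of all detected genes, lists of these sizes can hold none, so these lists are not set apart.

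**Figure D3:**
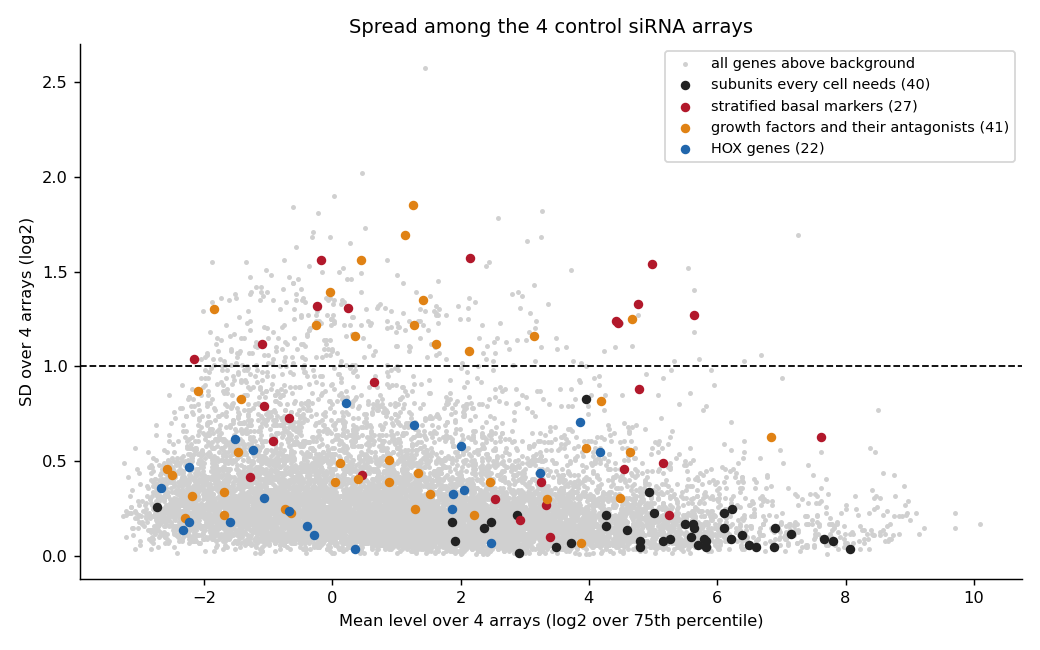
SD over the 4 control siRNA arrays (log2) against mean level (log2 over the 75th percentile of the array) for each detected gene, with 4 lists in colour and a dashed line at an SD of 1. Of the 27 basal markers 11 lie above the line, and of the 40 housekeeping subunits none. Of all detected genes 2.73% lie above it, a share at which a list of 40 can hold none.

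The 10 largest spreads among the brighter detected genes were those of CASP10, INHBA, VPS9D1, PLA2G15, VEGFC, RPS10, GBP6, CCL3, LAMA3 and LINC00942. They were of different kinds. INHBA, an activin subunit, had levels of 2.48, 0.2, 3.14 and -0.78, the lymphatic growth factor VEGFC 2.34, 0.34, 2.71 and -0.88, and LAMA3 3.42, 1.44, 3.47 and 0.27, so arrays 1 and 3 lay above arrays 2 and 4. CCL3, a chemokine, and the noncoding RNA LINC00942 had the same order. VPS9D1 was lowest on array 2, at 0.66 against 3.41 to 4.63. In contrast CASP10, RPS10, PLA2G15 and GBP6 were low on a single array. Another CASP10 probe detected on all 4 arrays was dimmer and also lowest on array 2, at -0.15, -1.64, 0.25 and -0.64. The remaining CASP10 probes were detected on none. For RPS10 the low array was the second, at 4.74 against 7.97 to 8.26, while its other 3 probes ranged between 6.51 and 7.18 on that array and had SDs of 0.10 to 0.19. The low value therefore belonged to 1 spot of 1 probe.

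At the other end, the 10 steadiest genes among the brighter ones were ZCRB1, RRAGA, EIF3C, UQCC4, NSDHL, HAPLN3, TAF6L, ZNF37A, NFE2L1 and ADCY3, with SDs of 0.009 to 0.016. The translation initiation factor subunit EIF3C, for example, had levels of 7.714, 7.7, 7.701 and 7.721. Steadiness over 4 arrays did not always extend to the other group. ZCRB1, a spliceosomal protein, stood at 2.23, 2.23, 2.24 and 2.25 in the control arrays, but at 1.72, -2.86, 1.61 and 2.09 in the KHSRP siRNA arrays.

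The wide genes shared an order. Of the 52 list genes with an SD over 1, 49 had arrays 1 and 3 both above arrays 2 and 4, and 3 had them both below. The third array was the highest in 45 and the fourth the lowest in 47. Of all 326 detected genes with an SD over 1, 268 had arrays 1 and 3 both above arrays 2 and 4, and 35 both below. The order was therefore shared by wide genes in general and was not particular to the lists. Over all detected genes, arrays 1 and 3 were both above arrays 2 and 4 in 26.3% and both below in 36.2%. Among the detected basal markers these counts were 23 (85.2%) and 2, among NRF2 genes 16 (72.7%) and 3, among secreted matrix genes 12 (63.2%) and 3, and among growth factors 22 (53.7%) and 11. The HOX genes ran the other way, with 2 above and 14 below (63.6%), as did the cancer-testis genes, with 0 above and 5 of 7 below.

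**Figure D4:**
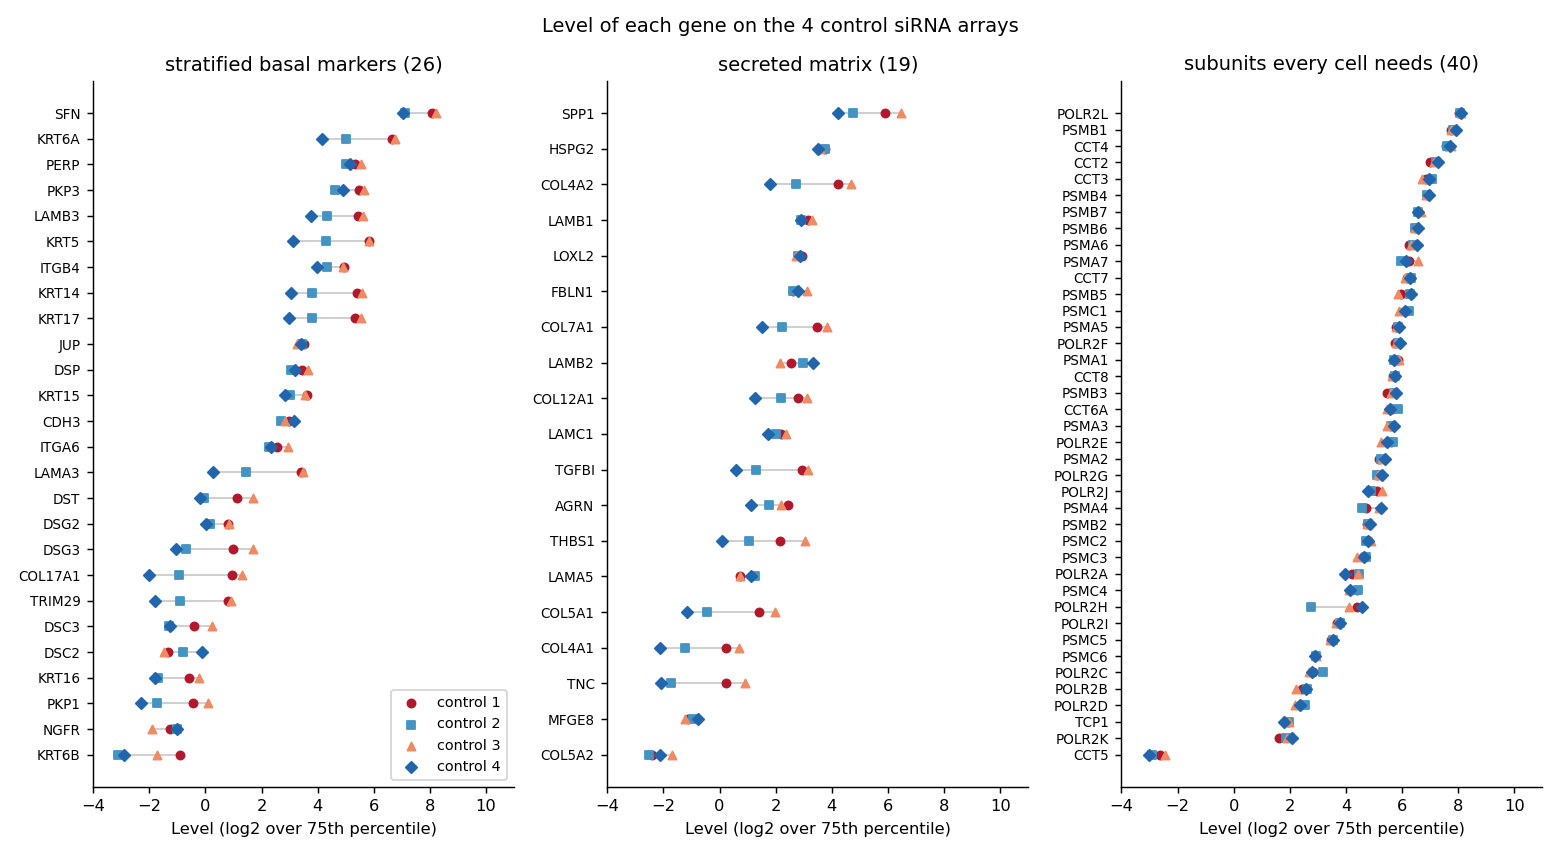
Level of each detected gene (log2 over the 75th percentile of the array) on control siRNA arrays 1 to 4 for basal markers, secreted matrix genes and housekeeping subunits, with a grey line over its range. Red symbols (arrays 1 and 3) lie to the right of blue ones (arrays 2 and 4) in 22 of the 26 basal markers drawn, and the symbols of most housekeeping subunits overlap.

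The file headers placed control arrays 1 and 2 on 1 slide and arrays 3 and 4 on another. After the slide's barcode the headers give a pair of numbers, the first of which was 1 for control arrays 1 and 3 and 2 for control arrays 2 and 4. The headers do not say what this number stands for, and on each slide arrays of both siRNA groups shared it. Over detected probes, Pearson's r was 0.988 between control arrays 1 and 3 and 0.987 between arrays 2 and 4, and it was 0.981 and 0.958 for the pairs that shared a slide. Of the summed squared deviations from the probe means, 66.8% lay between arrays 1 and 3 and arrays 2 and 4, and 18.2% between slides.

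Between slides, limma called 0 of the 18332 detected probes (0%) at an adjusted p under 0.05, with 466 at an unadjusted p under 0.05. At this number of arrays limma recovered 0% of simulated shifts of 1 and 72% of shifts of 2 on the log2 scale. Smaller differences between slides were therefore not detectable. The residual spread of this fit, also used in the simulation, holds the difference between arrays 1 and 3 and arrays 2 and 4. In a fit of slide over all 8 arrays, with the siRNA group as a term, 0 probes were called and 2074 had an unadjusted p under 0.05. The count of 0 does not show that the slides were alike. The pair of arrays 1 and 3 was set against arrays 2 and 4 because these arrays were seen to be alike, so the differences between the pairs are given as values with no test.

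Basal genes were among those that differed most between the pairs. KRT14 had levels of 5.4 and 5.58 on arrays 1 and 3 against 3.81 and 3.05 on arrays 2 and 4, and the means differed by 2.06 on the log2 scale, which is 4.17-fold. Its partner KRT5 differed by 2.13, LAMA3, a chain of laminin-332, by 2.59, and COL17A1, a collagen of the hemidesmosome, by 2.58. The cell adhesion genes JUP and CDH3, P-cadherin, differed by -0.05 and -0.01. The median difference was 1.34 over the 27 basal markers and -0.05 over all detected genes.

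Genes of secreted signals and of mesenchymal cells lay on both sides. INHBA was higher on arrays 1 and 3 by 3.10, which is 8.57-fold, VEGFC by 2.80, follistatin (FST), which binds and blocks activin, by 2.50, and IL1B by 2.06. GDF15, IGFBP2 and the cytokines LIF and IL11, both of the interleukin-6 family, were lower there, with differences of -1.08, -0.91, -0.77 and -0.70. Of the 17 detected cytokines and chemokines, 7 had arrays 1 and 3 both above arrays 2 and 4 and 5 had them both below.

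Of the 10 detected mesenchymal genes, 6 had arrays 1 and 3 both above arrays 2 and 4 and 2 both below. SNAI2, a transcription factor of both basal and mesenchymal cells, differed by 2.12 and VIM by 1.53, whereas SNAI1, a close relative of SNAI2, differed by -0.90 and COL1A1 by -0.84. SOX2 differed by 1.63. In the other direction NR2F1 differed by -2.53, which is 5.78-fold, EREG, a ligand of the EGF receptor, by -1.85 and BMP4 by -1.76. KRT19 differed by -0.86, MYC by -0.24 and KHSRP by 0.26.

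The KHSRP siRNA arrays fell into pairs as well. KRT5 stood at 5.92, 4.46, 2.92 and 5.98 on KHSRP siRNA arrays 1 to 4, INHBA at 3.69, 1.42, -0.1 and 4.15 and NR2F1 at 0.99, 2.41, 3.44 and 0.48. In all 3 genes arrays 1 and 4 stood apart from arrays 2 and 3. They did so in all 52 wide list genes, in the direction in which control arrays 1 and 3 stood apart from 2 and 4. Over all detected genes with an SD over 1, the direction was kept in 262 of the 268 with control arrays 1 and 3 above. It was kept in 31 of the 35 with them below. Over all detected genes these counts were 2277 of 3141 and 3367 of 4324. TAGLN, a smooth muscle protein, differed by 1.60 between the pairs of control arrays and by 0.03 between those of the KHSRP siRNA arrays, so not every detected gene followed both.

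These KHSRP siRNA arrays are numbered by their scanner files. In the series matrix the columns of KHSRP siRNA arrays 3 and 4 hold each other's scanner values (r = 1.0 against 0.49 for the file of the same number). By the numbers of the series matrix, arrays 1 and 3 stood apart from arrays 2 and 4 in both groups. The deviations of single arrays from the mean of their group were also correlated between the groups. For control array 3 the highest r was 0.84, with the scanner file of KHSRP siRNA array 4. For control array 4 it was 0.85, with the file of array 3. With the scanner file numbers these pairs had r of -0.68 (arrays 3) and -0.65 (arrays 4). The other control arrays paired less clearly. Control array 1 had r of 0.55 with KHSRP siRNA array 1 and 0.43 with the file of array 4. Control array 2 had r of 0.46 with KHSRP siRNA array 2 and 0.45 with the file of array 3. The sources do not say which numbering is right or whether samples of the same number were grown or transfected together.

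The first header number did not follow the pairs in a common direction, since it was 1 for control arrays 1 and 3 but 2 for KHSRP siRNA arrays 1 and 4. In a fit of all 8 arrays with the siRNA group as a term, limma called 0 probes (0%) between the header numbers, with 116 at an unadjusted p under 0.05. By this number the difference between the pairs has opposite signs in the siRNA groups. It therefore cancels from the estimate and widens the residual spread, so no conclusion is drawn from the count. Across the 18332 probes, the difference between control arrays 1 and 3 and arrays 2 and 4 correlated at 0.83 (Pearson's r) with that between KHSRP siRNA arrays 1 and 4 and arrays 2 and 3, a description over probes that are not independent and share their arrays. The difference between slides correlated at 0.64. What set the pairs apart was not tested.

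**Figure D5:**
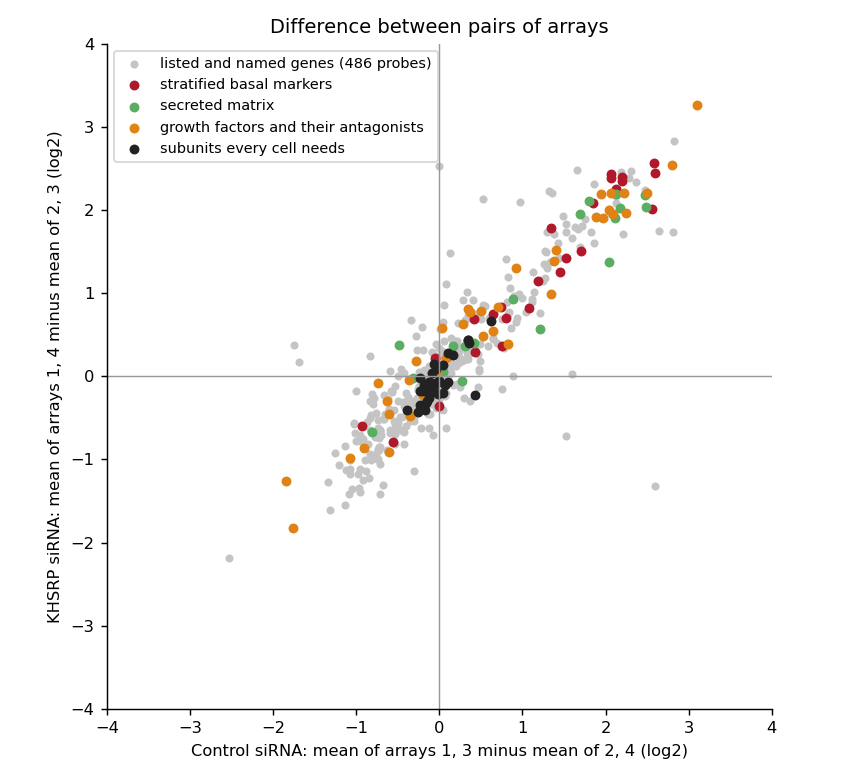
Mean of KHSRP siRNA arrays 1 and 4 minus that of arrays 2 and 3 (log2) against the mean of control siRNA arrays 1 and 3 minus that of arrays 2 and 4 (log2), with KHSRP siRNA arrays numbered by their scanner files, for the listed and named genes detected on all 4 control arrays. Most basal markers and secreted matrix genes lie at the upper right, growth factors lie on both sides, and the housekeeping subunits stay near 0.

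Promoters of the detected genes were set beside those of undetected and of wide genes, with the 250 bases before the gene start in RefSeq (GRCh38.p14). A promoter was matched for 9588 of the 11950 genes detected on all 4 arrays, for 4731 of the 6504 detected on none, and for 239 of the 326 with an SD over 1. The median number of CpG dinucleotides was 21 in the detected genes, 6 in those detected on none and 16 in the wide ones. The letters TATAAA on either strand were found in 5.67% of detected, 15.4% of undetected and 15.5% of wide genes, against 11.1% of all 27303 RefSeq promoters. The letters TGANTCA, the core that AP-1 factors bind, were found in 4.04%, 7.12% and 10.5%, against 6.6% of all. A promoter was counted once for a motif, however many matches it held. The motifs were chosen after the data had been seen, and a match in a window is a description and not a site.

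Among the lists, the cornification genes stood out, with TATAAA in 13 and TGANTCA in 12 of 25 matched promoters and a median of 2 CpG. Lists with many wide genes were not alike, since secreted matrix genes had a median of 26 CpG and TGANTCA in 0 of 18 promoters, growth factors a median of 19.5 CpG and TGANTCA in 2 of 38, and basal markers a median of 12 CpG and TGANTCA in 3 of 15. Promoters of 5 genes described above are printed as examples, those of GSTP1, among the brightest genes, of PSMA1, a proteasome subunit with a mean of 5.79 ± 0.09 (SD, n = 4), and of KRT5, LAMA3 and INHBA, which had SDs over 1. Each is given 5′ to 3′ on the strand of its gene, and capitals mark TATAAA or TGANTCA. They lie at chr11:67583562-67583811 (GSTP1, plus strand), chr11:14520387-14520636 (PSMA1, minus strand), chr12:52520395-52520644 (KRT5, minus strand), chr18:23872770-23873019 (LAMA3, plus strand) and chr7:41703091-41703340 (INHBA, minus strand).
GSTP1: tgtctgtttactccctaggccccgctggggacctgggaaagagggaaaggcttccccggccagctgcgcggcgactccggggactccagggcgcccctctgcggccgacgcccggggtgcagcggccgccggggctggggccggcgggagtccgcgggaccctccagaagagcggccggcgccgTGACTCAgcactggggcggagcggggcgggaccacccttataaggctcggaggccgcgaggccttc
PSMA1: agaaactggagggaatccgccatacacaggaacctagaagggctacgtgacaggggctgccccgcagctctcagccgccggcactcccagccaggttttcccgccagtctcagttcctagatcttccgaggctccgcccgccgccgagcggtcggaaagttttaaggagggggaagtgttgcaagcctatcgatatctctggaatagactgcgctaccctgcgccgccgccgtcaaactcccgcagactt
KRT5: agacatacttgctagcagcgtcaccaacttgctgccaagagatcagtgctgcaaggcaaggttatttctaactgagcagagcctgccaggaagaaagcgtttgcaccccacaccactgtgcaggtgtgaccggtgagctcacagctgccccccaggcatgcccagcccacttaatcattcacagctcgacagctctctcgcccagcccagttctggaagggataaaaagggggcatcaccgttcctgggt
LAMA3: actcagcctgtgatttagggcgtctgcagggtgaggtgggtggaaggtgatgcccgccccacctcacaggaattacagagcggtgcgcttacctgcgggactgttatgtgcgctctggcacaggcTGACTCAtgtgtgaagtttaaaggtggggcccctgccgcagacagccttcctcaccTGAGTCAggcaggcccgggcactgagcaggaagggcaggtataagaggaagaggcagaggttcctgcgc
INHBA: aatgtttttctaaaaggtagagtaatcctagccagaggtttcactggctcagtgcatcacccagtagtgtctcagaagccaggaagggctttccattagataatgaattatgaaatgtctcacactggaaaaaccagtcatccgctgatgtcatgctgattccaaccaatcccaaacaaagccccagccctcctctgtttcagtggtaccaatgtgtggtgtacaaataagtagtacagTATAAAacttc

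The GSTP1 and PSMA1 windows held 28 and 20 CpG, and the KRT5, LAMA3 and INHBA windows 6, 9 and 1, all below the median of 16 over the wide genes, so these 3 do not stand for wide genes in general. TGANTCA occurred at -66 in GSTP1 and at -125 and -69 in LAMA3, and TATAAA at -11 in INHBA, counted from the gene start to the first base of the motif. Neither motif occurred in the windows of PSMA1 or KRT5.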

How the data were processed

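The mRNA of 4 samples given control siRNA and 4 given KHSRP siRNA, grouped by their labels, was hybridised to one-colour Agilent arrays. The authors scanned the arrays and deposited the linear fluorescence intensity of each spot. The file headers name Feature Extraction 11.5.1.1 and the labels 12.6, and the processed signal is background-subtracted and not scaled between arrays. The labels and the methods name different kits for RNA extraction. The authors also deposited a series matrix of log2 values, attributed to GeneSpring, which are centred per probe and hold no level, so it served only for alternatives of spread and contrasts. Its columns for KHSRP siRNA arrays 3 and 4 matched each other's scanner files, and the numbers here are those of the scanner files except where the series matrix is named. A limma contrast of control arrays 1 and 3 against 2 and 4 was left out, since these pairs had been chosen on the same arrays.

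Control spots and outlier spots were left out, the log2 signal was averaged per probe, and the 75th percentile of the array over probes other than controls was subtracted. Probes were joined to symbols through RefSeq accessions (GRCh38.p14). Of 675 genes in 24 lists, 657 were matched; 42 of 164 list genes with several probes had probes of unlike detection. Genes on the Y chromosome and XIST were left out of the gene tables. The precision is limited by the number of arrays. Contrasts were fitted in R 4.3.3 with limma 3.58.1 (two-sided, eBayes, Benjamini-Hochberg over 18332 probes), and Python 3.11.15 served for the other steps. On simulated arrays of 2 against 2 with 200 shifted probes of 18332, with the spread of the slide fit, limma recovered 0% of shifts of 1, 72% of shifts of 2 and 93% of shifts of 3 on the log2 scale, with 0, 16 and 6 unshifted probes called.

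Named by rule were the 20 brightest genes, the 3 brightest detected genes of each list and all detected genes of lists of up to 12, the 10 widest and 10 steadiest genes among detected probes above the median level, KHSRP, and, without a value, genes detected on none. Other list genes were named after their values had been seen. The members and lists were chosen with earlier results of these data known. Alternatives were the criterion of detection, the scaling (quantile, median, 75th percentile of detected probes, normexp with an offset of 50, on the median spot brightness, a choice made after seeing the data), the probe chosen for each gene, the limma settings and leaving out each array. Some genes of the lists are counted but not reported by name here.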

Additional observations from a re-analysis of the deposited data

Results flagged for a closer look

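Of 110 named genes, 11 had a control array whose gap to its nearest neighbor took up more of the range of the 4 arrays than Dixon's limit for 4 values allows, and chance flags about 1 in 20 groups. Over all 18332 detected probes 675 (3.68%) did so. The named genes included the 10 widest and 10 steadiest over these same 4 arrays, among them CASP10, RPS10, PLA2G15, GBP6 and UQCC4. Their share is therefore not comparable with that of chance or of all probes. On control array 2, CASP10 was low (-2.4 against 2.7 for the nearest array, gap over range 0.98), as were RPS10 (4.74 against 7.97, 0.919), ENO1 (7.02 against 7.14, 0.984), RPL23 (8.54 against 9.06, 0.847) and ZNF865 (8.11 against 8.94, 0.956). On control array 3, GBP6 was low (0.73 against 4.02, 0.965), as were PLA2G15 (-0.09 against 3.31, 0.935) and COX7A2 (6.88 against 7.21, 0.917), while ZEB1 (1.75 against 1.36, 0.849) and UQCC4 (3.98 against 3.95, 0.84) were high. On control array 4, CUL3 was high (4.59 against 4.45, 0.876). CASP10, RPS10, RPL23, ZNF865, COX7A2, CUL3 and UQCC4 were each read at a probe with a single spot. Of 522 detected probes whose arrays were over 2 log2 units apart, 26 passed the same limit by a low value on array 2 and 5 by a low value on array 3.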

How the results depend on the processing

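The number of detected probes ranged from 18094 to 26072 and no probe was called between slides in any of the 13 alternatives. With the scanner's looser mark of positive and significant signal in place of well above background, list counts rose to 24 for cornification, 16 for columnar, 12 for blood and endothelial genes, 38 for nuclear receptors and 27 for cytokines, and the other list counts stayed within 1.5 times. The median SD was 0.159 with normexp and 0.293 over all probes. No probe was called between first header numbers over 8 arrays in any of the 13 alternatives, a comparison added after the data had been seen. The limits given above for the fits of slide and of header numbers apply to the alternatives of each as well. The causes were not tested. Median percentiles of lists moved by at most 5.0 points. Levels of named genes moved by more than their SD in 297 of 880 recalculations, which were 110 of 110 with scaling to the median, 109 with the 75th percentile of detected probes, 78 with normexp, and 0 with quantile normalization or without any 1 array. The series matrix gave no level or percentile, since its values are centred per probe. No paired analysis was possible because the siRNA groups were not compared and each replicate number occurs once among the control arrays. With 4 arrays the precision is limited, and a probe not above background gives no level.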
